A study of Mus musculus with 9 samples.

Results

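Intercalated cells are the acid-base regulating cells of the kidney's connecting tubule and collecting duct, and 10 genes known to mark them were followed here in whole mouse kidney. They were taken by name, through their Ensembl identifiers, from a table of 55359 genes. All 10 were found and all 10 passed the filter on low counts that left 17179 genes to test. Messenger RNA was sequenced in 9 libraries, 3 from each of 3 groups. NCD vehicle mice were put on a control diet with 11.32% of calories from fat at 6 weeks of age and given vehicle. HFD-STZ vehicle mice were put on a high-fat diet (49% of calories) at the same age, were injected with streptozotocin, a toxin of pancreatic beta cells, at 30 mg/kg 2 times, on days 60 and 63, were found hyperglycaemic on day 65, and were given vehicle. HFD-STZ DHZ mice had the same diet and toxin and then received dehydrozingerone, a curcumin analogue, by mouth at 50 mg/kg for 2 weeks. Groups were read from the sample titles, because the treatment label names the compound for all 9 libraries. The sources used here give neither strain nor sex, and nothing states that each library came from a separate animal, so p-values speak only to the spread among the libraries.

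Intercalated cells move acid or base between blood and urine with a vacuolar proton pump on one face of the cell and an anion exchanger on the other. Type A cells secrete acid: the pump is apical, and the chloride-bicarbonate exchanger AE1, the product of Slc4a1, is basolateral. Type B cells secrete base through pendrin, the apical exchanger encoded by Slc26a4. The forkhead transcription factor Foxi1 is required for these cells to form, and the Rhesus glycoproteins Rhbg and Rhcg carry ammonia, the main vehicle of acid excretion. The genes were divided into 2 of type A (Slc4a1 and Aqp6), 3 of type B (Slc26a4, Slc4a9 and Insrr) and 5 shared by both types or also made by other distal cells (Foxi1, Atp6v1g3, Atp6v0d2, Rhbg and Rhcg).

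Total counts per library ran from 15.1 to 47.5 M (M, mega, here and below), of which 39.2% to 60.4% came from the mitochondrial genome. Genes annotated as unprocessed pseudogenes held 19.1% to 26.2% of the total. Counts of nuclear protein-coding genes were 2.13 to 15.2 M. The lowest was HFD-STZ vehicle replicate 2, which also had the highest mitochondrial share and the fewest genes detected (19397), so results that rest on it are given with and without it. Y-linked transcripts, which mark male tissue, held 36.5 to 106 counts per M of all counts in 4 libraries and at most 0.209 in 5. Libraries with Y-linked transcripts made up 1 of 3 in NCD vehicle, 2 of 3 in HFD-STZ vehicle and 1 of 3 in HFD-STZ DHZ. The sexes thus seem to be mixed, and unevenly, over the groups. Batch dates in the labels differ for every library and run in group order, which means that a batch effect and a group effect cannot be told apart. All 10 genes were detected in all 9 libraries, with Foxi1 in HFD-STZ vehicle replicate 2 the lowest at 13 counts. In whole tissue, fewer cells of a type and less RNA per cell cannot be told apart.

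Between diabetic and control kidney none of the 10 genes was called (adjusted p below 0.05, quasi-likelihood test in edgeR, Benjamini-Hochberg adjusted over all genes tested), where 0.0524% of all genes were; 4 of the 10 had an unadjusted p under 0.05, against 7.43% of all genes. DESeq2 also called none of the 10 (0.733% of all genes). Without the low-count filter edgeR called 1, Foxi1, beside 1.33% of all genes, in a run whose SEs were nearly alike for most of the 10. Between dehydrozingerone and vehicle in diabetic mice 1 gene was called, Rhbg, which fell 2.52-fold, beside 22.1% called among all genes and 12.0% called lower. Between treated diabetic and control mice Slc4a9, Insrr and Rhbg were called, each lower, beside 13.7% of all genes called and 7.38% called lower. Those 3 genes were 2.36-fold to 2.88-fold lower in HFD-STZ DHZ than in NCD vehicle. Pendrin (Slc26a4), the type B exchanger of the apical face, was not called in any comparison, and neither was either type A gene.

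**Figure D1:**
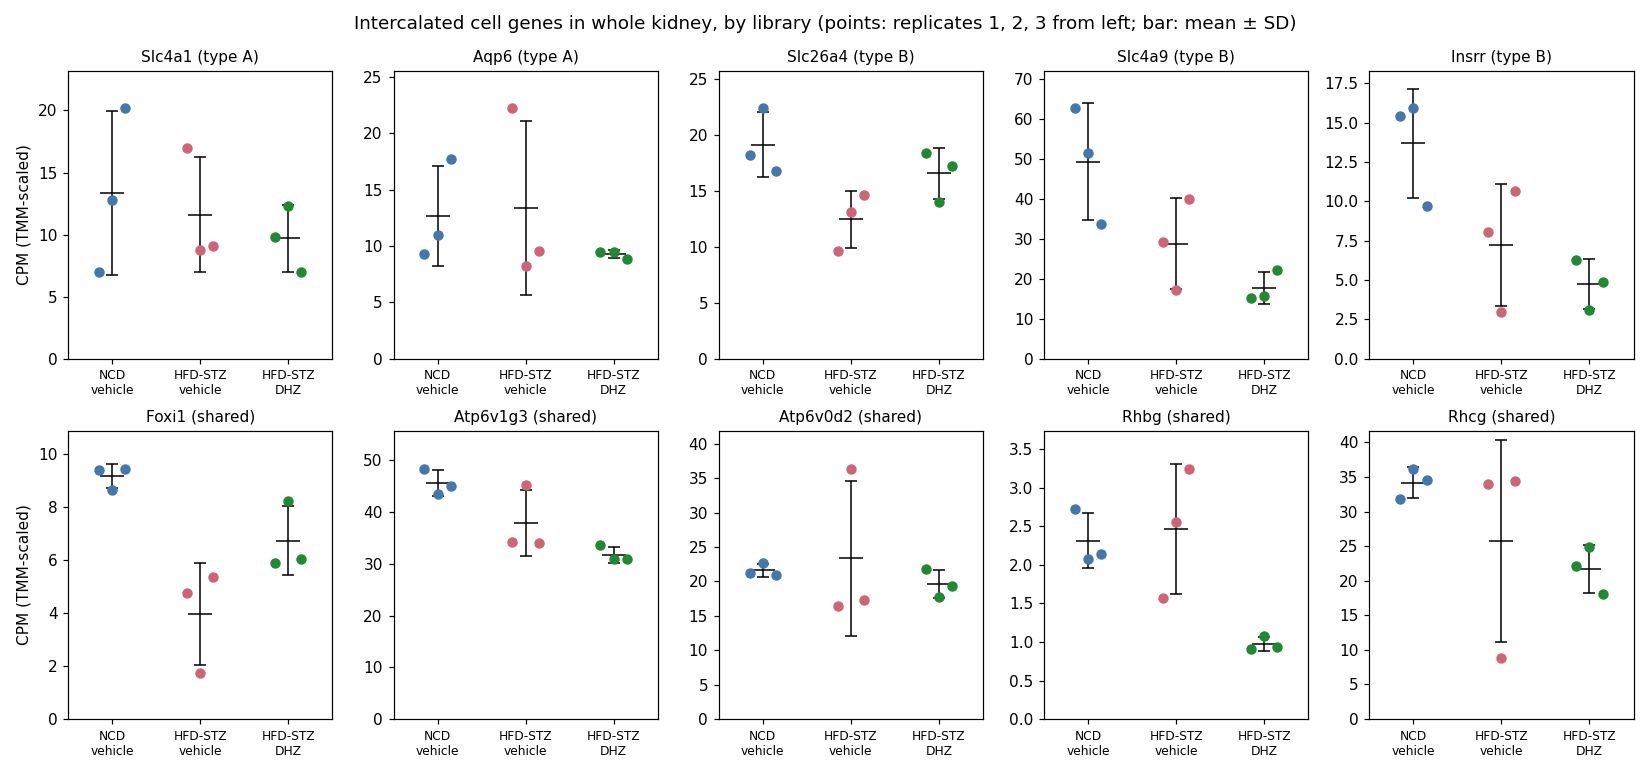
Counts per M (CPM, TMM-scaled, y axis from 0) of the 10 intercalated cell genes in each of the 9 libraries, by group; points are replicates 1, 2 and 3 from left to right, and bars are the mean ± SD (n = 3). All 3 HFD-STZ DHZ points for Rhbg (0.911 to 1.08 CPM) lie below every other library, while those for Slc26a4 (14.0 to 18.4 CPM) overlap both NCD vehicle (16.8 to 22.4 CPM) and HFD-STZ vehicle (9.65 to 14.7 CPM).

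Levels of different genes were compared per length, as CPM per kb of annotated exon. In NCD vehicle the proton pump subunit gene Atp6v1g3 was highest at 24.2 ± 1.32 CPM per kb (mean ± SD, n = 3), followed by Rhcg at 15.3 ± 1.00 CPM per kb. Then came Atp6v0d2 (7.96 ± 0.331), Slc4a9 (7.70 ± 2.29), Slc26a4 (6.15 ± 0.935), Aqp6 (5.23 ± 1.84), Foxi1 (3.89 ± 0.194), Slc4a1 (2.72 ± 1.35) and Insrr (2.40 ± 0.604), all in CPM per kb. From Atp6v0d2 to Insrr, each step in that order was within the SDs of the neighbours. Rhbg was lowest at 1.20 ± 0.184 CPM per kb and stood apart from Insrr. In HFD-STZ DHZ the first 3 kept their places, but Slc4a9 (2.76 ± 0.616 CPM per kb) ranked below Slc26a4 (5.33 ± 0.731), Aqp6 (3.84 ± 0.142) and Foxi1 (2.86 ± 0.554). The step from Foxi1 to Slc4a9 was within their SDs. In HFD-STZ vehicle no neighbours in the order stood apart by more than their SDs.

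Foxi1, the transcription factor at the head of the intercalated cell programme, had 9.41, 8.64 and 9.46 CPM in NCD vehicle replicates 1, 2 and 3. It had 4.77, 1.75 and 5.38 CPM in HFD-STZ vehicle and 5.91, 8.24 and 6.05 CPM in HFD-STZ DHZ. The 3 groups did not overlap: control kidneys were highest, vehicle-treated diabetic kidneys lowest, and dehydrozingerone-treated kidneys between them. The log2 fold change was −1.15 (SE 0.31, unadjusted p = 0.0032, adjusted p = 0.36) between diabetic and control mice and 0.70 (SE 0.31, adjusted p = 0.12) between dehydrozingerone and vehicle. Between treated and control mice it was −0.44 (SE 0.30, adjusted p = 0.34). None of these passed the test. Without the low-count filter the first 2 did (adjusted p = 0.0057 and 0.041), when 1.33% and 14.5% of all genes were called. In that run the model SEs of Slc4a1, Aqp6 and Slc26a4 were all 0.27, against 0.38, 0.35 and 0.22 in the main fit. Its p-values thus say little about each gene's own spread among the libraries. The value of 1.75 CPM in HFD-STZ vehicle replicate 2 rests on 13 counts. Leaving that library out took the model estimate to −0.85 (adjusted p = 0.41) and the treatment estimate to 0.41 (adjusted p = 0.19). Over all genes tested, 11.4%, 39.8% and 44.1% had no overlap between the groups in the model, treatment and treated-against-control comparisons, against 2, 3 and 6 of the 10 genes here.

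Forkhead proteins bind a short core that can be written TGTTTA or TGTTTG. RefSeq promoter sequences (build GRCm38.p6, an older build than the GRCm39 of the counts) were at hand for 5 of the 10 genes: Aqp6, Slc26a4, Foxi1, Atp6v1g3 and Rhcg. The 250 bases before each start were searched for either core on both strands. A match was present in 1 of the 5, Atp6v1g3, and in 25.3% of all 32851 promoters of that length. Atp6v1g3 and pendrin are printed 5′ to 3′ on the gene's own strand, as the promoter with the core and as that of an exchanger gene that Foxi1 is known to activate. Capitals mark the core, here as the reverse complement of TGTTTG, 61 to 66 bases before the start.
Atp6v1g3, chr1:138273488-138273737, plus strand: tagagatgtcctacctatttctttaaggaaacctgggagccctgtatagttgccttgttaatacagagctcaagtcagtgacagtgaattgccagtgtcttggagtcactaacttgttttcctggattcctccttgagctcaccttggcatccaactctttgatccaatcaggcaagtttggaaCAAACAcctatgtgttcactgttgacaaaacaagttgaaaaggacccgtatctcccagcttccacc
Slc26a4, chr12:31559985-31560234, minus strand: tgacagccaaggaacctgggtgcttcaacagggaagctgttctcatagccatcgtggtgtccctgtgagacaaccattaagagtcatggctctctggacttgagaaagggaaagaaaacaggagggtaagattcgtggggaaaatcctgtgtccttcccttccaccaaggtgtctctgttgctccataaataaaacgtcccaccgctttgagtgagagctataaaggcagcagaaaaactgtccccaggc
A match describes letters only, and its absence says nothing about whether Foxi1 binds.

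Atp6v1g3 and Atp6v0d2 encode subunits of the proton pump in forms that the kidney makes mainly in intercalated cells. Atp6v1g3 had 48.4, 43.5 and 45.1 CPM in NCD vehicle, 34.2, 45.2 and 34.1 CPM in HFD-STZ vehicle, and 33.6, 30.8 and 30.9 CPM in HFD-STZ DHZ. All 3 dehydrozingerone libraries lay below all others, by a narrow margin against HFD-STZ vehicle. The log2 fold change was −0.25 (SE 0.19, adjusted p = 0.38) against HFD-STZ vehicle and −0.52 (SE 0.19, adjusted p = 0.089) against NCD vehicle. The latter did not pass here but did with DESeq2 (adjusted p = 0.030, where 20.5% of all genes were called). It also passed once HFD-STZ vehicle replicate 2 was left out, at an adjusted p of 0.045, where 20.6% of all genes were called. That library is in neither group compared, so its removal acts only through the shared fit, the scaling and the adjustment over all genes. Atp6v0d2 had 21.2, 22.6 and 21.0 CPM in NCD vehicle, 16.4, 36.4 and 17.4 CPM in HFD-STZ vehicle, and 21.8, 17.8 and 19.4 CPM in HFD-STZ DHZ. The high value belongs to HFD-STZ vehicle replicate 2, and the groups overlapped in every comparison (log2 fold changes −0.24 to 0.10, adjusted p = 0.56 to 0.94). Without that library the estimate against NCD vehicle turned from 0.10 to −0.35, and that for dehydrozingerone from −0.24 to 0.22.

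The type A genes are Slc4a1, for the basolateral exchanger AE1, and Aqp6, for a channel of acid-secreting cells' vesicles. Slc4a1 had 7.00, 12.8 and 20.2 CPM in NCD vehicle, 17.0, 8.77 and 9.11 CPM in HFD-STZ vehicle, and 9.82, 12.3 and 6.95 CPM in HFD-STZ DHZ. Aqp6 had 9.30, 11.0 and 17.7 CPM in NCD vehicle, 22.2, 8.23 and 9.59 CPM in HFD-STZ vehicle, and 9.47, 9.52 and 8.90 CPM in HFD-STZ DHZ. Both varied as much within the vehicle groups as between groups. Their log2 fold changes ran from −0.54 to 0.08 with adjusted p from 0.28 (Aqp6, dehydrozingerone against vehicle) to 0.96 (Aqp6, diabetic against control), and their groups overlapped in every comparison. In HFD-STZ vehicle both were highest in replicate 1. Without it the estimates for dehydrozingerone turned to 0.10 (Slc4a1) and 0.04 (Aqp6). Slc4a1 followed another division of the libraries: the 4 with Y-linked transcripts had 6.95 to 9.11 CPM and the 5 without had 9.82 to 20.2 CPM, with no overlap. Aqp6 had 8.23 to 9.59 CPM in the former and 9.47 to 22.2 CPM in the latter. This was noticed after the values were seen. With a term for the Y-linked libraries the estimates for Slc4a1 were 0.13, −0.53 and −0.40 in the model, treatment and treated-against-control comparisons, with adjusted p of 0.95, 0.11 and 0.21. None of the other 9 genes separated along that line without overlap.

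Type B cells were represented by pendrin, by Slc4a9, for the basolateral transporter AE4, and by Insrr, for the insulin receptor-related receptor, a sensor of alkaline fluid at the basolateral face. Slc4a9 had 62.7, 51.6 and 33.6 CPM in NCD vehicle, 29.3, 17.1 and 40.0 CPM in HFD-STZ vehicle, and 15.1, 15.7 and 22.2 CPM in HFD-STZ DHZ. Every treated diabetic library lay below every control library, and vehicle-treated diabetic libraries overlapped both. Slc4a9 fell 2.79-fold between NCD vehicle and HFD-STZ DHZ (log2 fold change −1.48, SE 0.32, adjusted p = 0.017). Leaving out NCD vehicle replicate 1, HFD-STZ DHZ replicate 1 or HFD-STZ DHZ replicate 2 gave log2 fold changes of −1.27, −1.37 and −1.39 that did not pass (adjusted p = 0.076, 0.084 and 0.080). The steps on either side of HFD-STZ vehicle were of like size, −0.77 (SE 0.32, adjusted p = 0.63) from control to diabetic and −0.71 (SE 0.32, adjusted p = 0.12) from vehicle to dehydrozingerone. Both steps moved with single HFD-STZ vehicle libraries. Leaving out replicate 2 gave −0.50 for the model and −0.97 for the treatment, which then passed (adjusted p = 0.037). Leaving out replicate 3 gave −1.08 and −0.39, with an adjusted p of 0.41 for the treatment.

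Insrr had 15.5, 15.9 and 9.71 CPM in NCD vehicle, 8.08, 2.97 and 10.6 CPM in HFD-STZ vehicle, and 6.26, 3.13 and 4.88 CPM in HFD-STZ DHZ. The order of the groups was that of Slc4a9, and again only treated and control libraries failed to overlap. Insrr fell 2.88-fold between NCD vehicle and HFD-STZ DHZ (−1.53, SE 0.39, adjusted p = 0.027). It did not pass when NCD vehicle replicate 1 or 2 was left out (adjusted p = 0.099 and 0.082), nor when HFD-STZ DHZ replicate 1, 2 or 3 was (adjusted p = 0.072, 0.11 and 0.060). The steps were −0.87 (SE 0.39, adjusted p = 0.66) for the model and −0.65 (SE 0.39, adjusted p = 0.24) for the treatment. Leaving out HFD-STZ vehicle replicate 2, where Insrr had only 22 counts, took the model step to −0.54 and the treatment step to −0.98 (adjusted p = 0.045). Leaving out replicate 3 moved them the other way, to −1.25 and −0.27 (adjusted p = 0.68 for the treatment). Insrr lies across Pear1, a gene of the opposite strand, and the sources used here do not state whether counting used the strand. Pear1 held 29 to 250 counts in the libraries where Insrr held 22 to 383, so a share of either could belong to the other.

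Slc26a4 had 18.2, 22.4 and 16.8 CPM in NCD vehicle, 9.65, 13.1 and 14.7 CPM in HFD-STZ vehicle, and 18.4, 14.0 and 17.2 CPM in HFD-STZ DHZ. Vehicle-treated diabetic libraries lay below all controls, whereas treated libraries overlapped both other groups. The log2 fold changes were −0.62 (SE 0.22, unadjusted p = 0.016, adjusted p = 0.56) for the model, 0.41 (SE 0.22, adjusted p = 0.19) for the treatment and −0.21 (SE 0.22, adjusted p = 0.54) for treated against control. None passed the test in any alternative run.

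**Figure D2:**
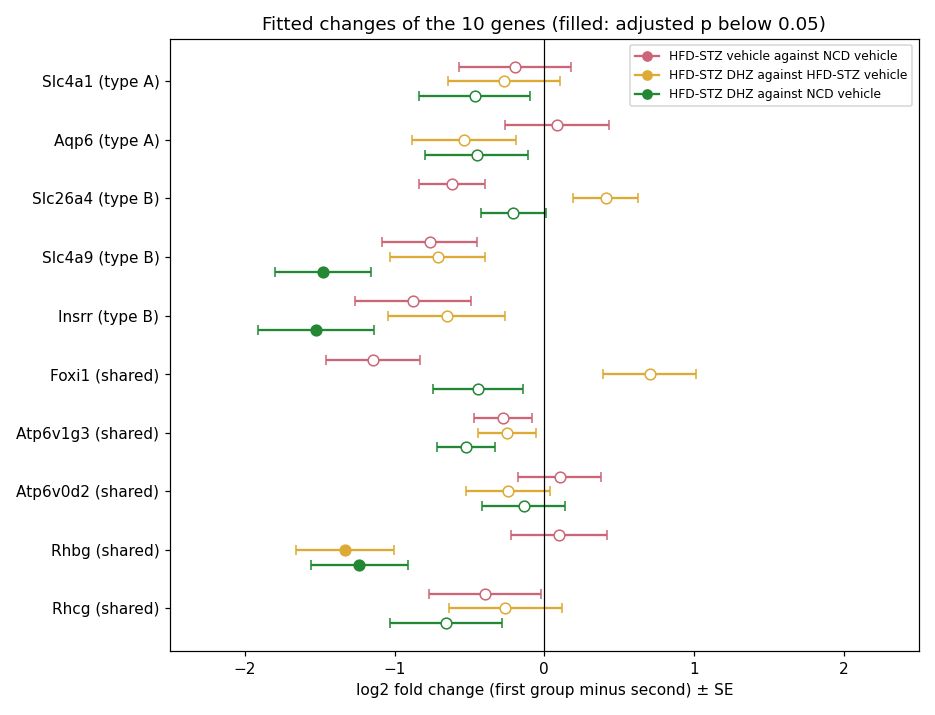
Log2 fold changes (x axis, first group named minus the second) with their SE for each of the 10 genes in the 3 comparisons, from 1 edgeR fit on all 9 libraries; filled points passed at an adjusted p below 0.05. The 4 filled points are Slc4a9, Insrr and Rhbg against NCD vehicle and Rhbg against HFD-STZ vehicle, all negative, and Slc26a4 and Foxi1 have positive estimates for the treatment that did not pass.

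The Rhesus glycoproteins carry ammonia across the basolateral (Rhbg) and the apical and basolateral (Rhcg) membranes of distal nephron and collecting duct cells. Rhbg had 2.73, 2.08 and 2.15 CPM in NCD vehicle, 1.57, 2.56 and 3.25 CPM in HFD-STZ vehicle, and 0.911, 1.08 and 0.930 CPM in HFD-STZ DHZ. The treated libraries were the lowest 3 of 9 and close to each other, and the vehicle groups overlapped. Rhbg fell 2.52-fold with dehydrozingerone against vehicle (log2 fold change −1.33, SE 0.33, adjusted p = 0.016) and was 2.36-fold lower than in control mice (−1.24, SE 0.32, adjusted p = 0.029). Between diabetic and control mice it was 0.10 (SE 0.32, adjusted p = 0.95). Its counts were low, at 19 to 84 per library. Leaving out HFD-STZ vehicle replicate 3 (−1.02), HFD-STZ DHZ replicate 1 (−1.28) or HFD-STZ DHZ replicate 2 (−1.41) ended the treatment call, with adjusted p of 0.069, 0.069 and 0.052. It also ended with libraries scaled by size alone (−0.43, adjusted p = 0.69), a scaling under which the median of all genes was 0.81. The call against NCD vehicle was lost without any 1 of the 6 libraries compared (adjusted p = 0.055 to 0.11) and when replicate number entered as a block (−1.25, adjusted p = 0.070). A same-strand gene model that overlaps Rhbg, Gm38392, held at most 1 count in any library.

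Rhcg had 31.8, 36.2 and 34.6 CPM in NCD vehicle, 33.9, 8.90 and 34.4 CPM in HFD-STZ vehicle, and 22.1, 24.9 and 18.1 CPM in HFD-STZ DHZ. Apart from HFD-STZ vehicle replicate 2, the vehicle libraries of both diets shared 1 narrow range, and all treated libraries lay below it. The log2 fold change for the treatment was −0.26 (SE 0.38, adjusted p = 0.65), and −0.65 without that library (adjusted p = 0.041). Against NCD vehicle it was −0.66 (SE 0.38, adjusted p = 0.25), and −0.65 without that library (adjusted p = 0.029). That library is in neither of these 2 groups, so the estimate hardly moved while the shared fit and the adjustment changed. With only the 2 groups compared in the fit, Rhcg also passed against NCD vehicle (adjusted p = 0.022, where 23.6% of all genes were called). A same-strand gene model that overlaps Rhcg, Gm45170, held 22 to 230 counts where Rhcg held 66 to 1612. Without HFD-STZ vehicle replicate 2, then, 4 of the 10 genes were called lower with dehydrozingerone against vehicle (Slc4a9, Insrr, Rhbg and Rhcg). Against NCD vehicle 5 of 10 were called lower (the same 4 and Atp6v1g3). Of all genes, 19.4% and 20.6% were called in either direction. The share called lower was not counted for this run, and in the main fit it was 12.0% and 7.38%. This removal gave the most calls among the 10 in both comparisons. Other single removals gave fewer, and some gave none.

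By class, the median log2 fold change in the model comparison was −0.06 for type A, −0.77 for type B and −0.27 for the shared genes. In the treatment comparison the medians were −0.40, −0.65 and −0.25 in the same order, and in treated against control −0.46, −1.48 and −0.52. Over all genes tested the medians were 0.00, 0.04 and 0.01. The class medians of the first 2 comparisons moved with single libraries. With 1 library left out, type A ran from −0.52 (without HFD-STZ vehicle replicate 1) to 0.32 (without NCD vehicle replicate 3) in the model comparison. For the treatment it ran from −0.59 (without HFD-STZ vehicle replicate 2) to 0.070 (without replicate 1). Type B was −1.08 (model) and −0.27 (treatment) without HFD-STZ vehicle replicate 3, and −0.54 and −0.97 without replicate 2. The shared median for the treatment was −0.098 without replicate 2. All 3 type B genes had lower estimates in diabetic than in control mice with an unadjusted p under 0.05, against 0 of 2 type A genes and 1 of 5 shared genes, and none passed adjustment. In the treatment comparison the type B class was not uniform, since pendrin had a positive estimate and Slc4a9 and Insrr negative ones. Nor was it uniform in treated against control, with −0.21 for pendrin beside −1.48 (Slc4a9) and −1.53 (Insrr). Pendrin's estimate there was nearer to 0 than those of the type A genes, −0.46 (Slc4a1) and −0.45 (Aqp6). The type B median of −1.48 is thus not the level of all its genes. All 10 estimates were negative in treated against control mice. The summed level of the 10 genes was 210.3 to 227 CPM in NCD vehicle, 145 to 178 CPM in HFD-STZ vehicle and 136 to 143 CPM in HFD-STZ DHZ, with no overlap between groups. The margin between the last 2 groups was narrow, and the sum of 145 CPM was that of HFD-STZ vehicle replicate 2. Without that library HFD-STZ vehicle had 177 to 178 CPM. No test was made of these sums or of differences between classes.

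Ratios of 2 genes within a library do not depend on how libraries are scaled. Pendrin counts were 2.60, 1.75 and 0.834 times those of Slc4a1 in NCD vehicle, 0.569, 1.49 and 1.61 times in HFD-STZ vehicle, and 1.88, 1.14 and 2.48 times in HFD-STZ DHZ. This ratio of a type B to a type A exchanger overlapped among all groups. The ratio of pendrin to Slc4a9, both of type B, was examined after the values were seen. It was 0.290, 0.434 and 0.500 in NCD vehicle, 0.329, 0.764 and 0.367 in HFD-STZ vehicle, and 1.22, 0.895 and 0.776 in HFD-STZ DHZ. All treated libraries exceeded all others, though HFD-STZ vehicle replicate 2 came close, on 97 counts of pendrin and 127 of Slc4a9.

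**Figure D3:**
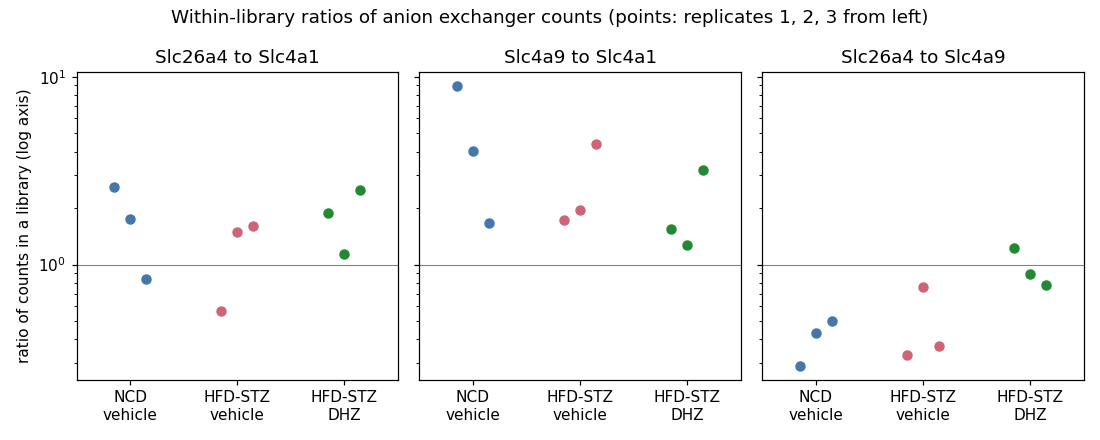
Ratios of raw counts of anion exchanger genes within each library (log y axis; points are replicates 1, 2 and 3 from left; the grey line marks equal counts), for pendrin (Slc26a4) to Slc4a1, Slc4a9 to Slc4a1 and Slc26a4 to Slc4a9. The first 2 ratios overlap among the groups, and in the last the HFD-STZ DHZ libraries (0.776 to 1.22) lie above all others (0.290 to 0.764).

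A further 20 genes that intercalated cells are known for were listed beside these. In the model comparison 0 of 20 rose or fell, in the treatment comparison 1 fell and 0 rose, and in treated against control 1 rose and 1 fell. These shares compare with 0.0524%, 22.1% and 13.7% called among all genes, so the list was not called more often than genes at large. Their median log2 fold changes were −0.20, 0.15 and −0.13. Their summed level did not follow that of the 10 genes, at 437 to 492 CPM in NCD vehicle, 436 to 493 CPM in HFD-STZ vehicle and 434 to 507 CPM in HFD-STZ DHZ. The gene that fell with treatment was Atp6v1c2, a collecting duct form of a pump subunit, from 13.5 ± 1.29 to 8.93 ± 0.200 CPM (−0.60, SE 0.18, adjusted p = 0.031). Tfcp2l1, a transcription factor of intercalated and other distal cells, rose from 49.2 ± 2.85 CPM in NCD vehicle to 92.1 ± 7.69 CPM in HFD-STZ DHZ (0.90, SE 0.21, adjusted p = 0.020). Kcnma1, a potassium channel gene, fell between the same groups from 1.46 ± 0.108 to 0.541 ± 0.193 CPM (−1.43, SE 0.42, adjusted p = 0.041). Tfcp2l1 and Kcnma1 were singled out after their values were seen.

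Among proton pump subunits, 1 of 5 collecting duct forms and 1 of 16 widely expressed ones were called for the treatment, against 22.1% of all genes. Atp6v1b1, whose product is the catalytic-head subunit made in intercalated cells, had 66.0 ± 28.2 CPM in HFD-STZ vehicle and 36.6 ± 5.93 CPM in HFD-STZ DHZ (−0.85, SE 0.28, adjusted p = 0.0504). Among the 5 subunits of the collecting duct form (Atp6v1b1, Atp6v1c2, Atp6v1g3, Atp6v0a4 and Atp6v0d2, put together after their values were seen) 4 had negative estimates for the treatment and 1, Atp6v0a4, a positive one (0.43, SE 0.20, adjusted p = 0.14). The median was −0.25 and 1 fell. Of 16 widely expressed subunits and accessory proteins 13 had positive estimates, with a median of 0.24, and 1 rose. That was Atp6ap2, for the prorenin receptor and pump accessory protein, with 14.3 ± 5.02 CPM in HFD-STZ vehicle and 28.3 ± 4.62 CPM in HFD-STZ DHZ (1.00, SE 0.25, adjusted p = 0.017). No difference between these sets was tested.

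**Figure D4:**
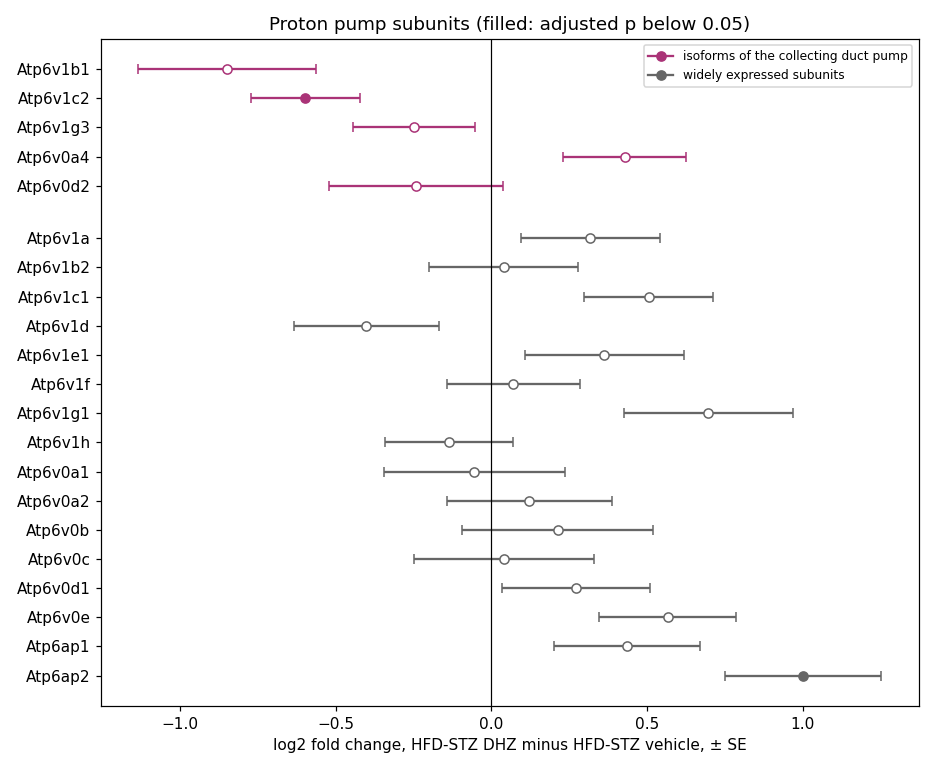
Log2 fold changes of proton pump subunit genes between HFD-STZ DHZ and HFD-STZ vehicle (x axis, DHZ minus vehicle) with their SE, for 5 isoforms of the collecting duct pump and 16 widely expressed subunits and accessory proteins; filled points passed at an adjusted p below 0.05. Of the former 4 lie left of 0, of the latter 13 lie right of it, and Atp6v1c2 and Atp6ap2 are the filled points.

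Markers of other cell types that border on or mix with intercalated cells were counted as well. In the treatment comparison 22.1% of all genes were called and 12.0% were called lower. The counts below were not tested against these shares. Of 10 principal cell markers, from the water- and sodium-handling neighbours in the collecting duct, 3 fell with dehydrozingerone against vehicle and 0 rose, and none was at 0 in any library. Their summed level was 144 to 209 CPM in NCD vehicle, 137 to 216 CPM in HFD-STZ vehicle and 82.0 to 155 CPM in HFD-STZ DHZ. The principal cell transcription factor Gata3, with the lowest p of the 10, fell from 30.3 ± 2.98 to 11.9 ± 2.21 CPM (−1.35, SE 0.20, adjusted p = 0.0031). Of the 10 markers 7 had negative estimates and 3 positive ones, and Aqp2 was not called (−0.72, SE 0.53, adjusted p = 0.36). Of 7 markers of the distal convoluted and connecting tubule 2 fell and 1 rose, with sums of 1193 to 1542, 1156 to 1602 and 860 to 1544 CPM in the order of the groups. Of 5 thick ascending limb markers 2 rose and 0 fell, with sums of 709.8 to 1413, 832 to 1809 and 1125 to 2531 CPM. The part of these cell types, and of depth, in the values of the 10 genes was not tested.

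The mean standardised profile of the 10 genes over the 9 libraries was set against 10175 other genes whose log2 CPM averaged at least 1. The 5 most alike were Entpd8, Ttc7, Ltbp4, Evc and Ripor1, with Pearson correlations of 0.93 to 0.96 over the 9 libraries, which share groups and scaling. These describe likeness of pattern only.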

How the data were processed

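RNA of 9 mouse kidney samples was sequenced after poly(A) capture with a stranded kit, per the labels' protocols. The deposited values are raw counts per gene, made by the authors from reads processed with FastQC, Trim Galore and STAR on GRCm39 (mm39), per the submitters' processing notes; the sources used here name no counting program, no setting for strand or repeats, no versions and no annotation. The table held 0 other columns of per-sample values. Ensembl identifiers gave a symbol to 94.1% of all genes and to 99.5% of tested genes. Exon lengths came from GENCODE on an older build.

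The analysis used edgeR 4.0.16 under R 4.3.3: filterByExpr, TMM scaling, 1 robust quasi-likelihood fit on all 9 libraries with group as the only term (6 residual degrees of freedom, common dispersion 0.0893) and Benjamini-Hochberg adjustment over 17179 genes. SEs were derived from the F statistic, tests are two-sided, and CPM are per M of TMM-scaled library size. The fit was also run on simulated data with the same dispersion for every gene and no difference in composition between libraries. That setting is simpler than these libraries, so it does not show how the fit performs on them. DESeq2 1.42.0 and limma 3.58.1 (voom) were alternatives. Counts without molecular identifiers carry amplification as well as counting error. All 10 genes are named; from other lists, genes with the lowest p or those that were counted. The genes, classes and lists were chosen with earlier results of these data known.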

Additional observations from a re-analysis of the deposited data

How the results depend on the processing

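Of the fold changes of the 10 genes under the alternatives other than scaling by library size alone, 468 kept their direction and their side of the threshold, 18 no longer passed, 10 newly passed and 14 changed sign. Under that scaling, which shifts all genes together, 19 kept both, 4 no longer passed and 7 changed sign. The cause of these changes was not tested.

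Scaling by library size alone moved the median of all genes by −0.74, 0.81 and 0.04 (log2) in the model, treatment and treated-against-control comparisons. Signs and medians under it are to be read against that shift. It called 29, 888 and 36 genes and 0 of the 10 in the treatment and treated-against-control comparisons. Model estimates turned to −0.48 (Aqp6), −0.88 (Atp6v0d2) and −0.72 (Rhbg), and treatment estimates to 0.33 (Slc4a1), 0.60 (Atp6v1g3), 0.76 (Atp6v0d2) and 0.28 (Rhcg). Class medians became −0.69, −1.42 and −0.92 (type A, type B, shared; model) and 0.15, −0.025 and 0.60 (treatment). Treated against control it ended the calls of Slc4a9 (−1.35, adjusted p = 0.56), Insrr (−1.45, adjusted p = 0.57) and Rhbg (−1.15, adjusted p = 0.82), and for the treatment that of Rhbg (−0.43, adjusted p = 0.69). Treated against control the median moved little, but the SEs of Slc4a9, Insrr and Rhbg were 0.57, 0.62 and 0.70, against 0.32, 0.39 and 0.32 in the main fit.

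In the model comparison the main 9 calls over all genes became 425 without a filter, 126 with DESeq2, 3 with only the 2 groups compared, 42 with a Y-linked term and 2 to 28 with 1 library left out. Treatment calls ran from 1149 to 4086 with 1 library left out, against 3796. Treated against control, 2352 calls became 3530 with DESeq2, 3981 with only the 2 groups compared, 3617 with the Y-linked term and 112 to 3706 with 1 library left out. Of the 10 genes, 1 (model) and 2 (treatment) were called without a filter, beside 1.33% and 14.5% of all genes. With only the 2 groups compared, 5 were called treated against control, beside 23.6%. With 1 library left out, 0 to 4 (treatment) or 0 to 5 (treated against control) were called, the highest counts beside 19.4% and 20.6%.

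The sources used here state no pairing by replicate number. Deviations from the group mean correlated at −0.41 to 0.22 for same-numbered libraries and at −0.35 to 0.50 for the others. With 3 libraries a group this cannot settle whether libraries were paired. With the number as a block, 2, 2159 and 772 genes were called, and the call of Rhbg against NCD vehicle was lost.

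In the model comparison Atp6v0d2 turned to −0.032 with limma-voom, and Slc4a1 to 0.13 and Rhbg to −0.051 with the Y-linked term. With 1 library left out, the model estimates that changed sign ranged from −0.56 to 0.23 (Slc4a1), −0.49 to 0.41 (Aqp6), −0.35 to 0.32 (Atp6v0d2), −0.21 to 0.37 (Rhbg) and −0.66 to 0.00036 (Rhcg). The turns came without NCD vehicle replicates 1 and 2 (Aqp6) or 3 (Slc4a1), and without HFD-STZ vehicle replicates 1 (Aqp6), 2 (Atp6v0d2, Rhcg) or 3 (Rhbg). Treatment estimates that changed sign ranged from −0.47 to 0.10 (Slc4a1), −0.76 to 0.038 (Aqp6), −0.46 to 0.22 (Atp6v0d2) and −0.65 to 0.0073 (Rhcg), the turns coming without HFD-STZ vehicle replicates 1, 1, 2 and 3.

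The shared median in treated against control (−0.52) was −0.61 with TMM on nuclear coding genes, −0.46 without a filter, −0.44 with Rhbg and Rhcg counted as type A, and −0.61 to −0.47 with 1 library left out. The difference in mean log2 ratio of Slc26a4 to Slc4a1 was 0.65 (treatment) and 0.16 (treated against control); for Slc4a9 to Slc4a1 it was −0.41 and −1.09, and for Slc26a4 to Slc4a9, chosen after the data were seen, 1.25 in the latter. Depth limits Rhbg most, at 19 to 84 counts, and HFD-STZ vehicle replicate 2, with 13 counts of Foxi1 and 22 of Insrr.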
